A study of Mus musculus with 12 samples.

Results

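The tumour necrosis factor (TNF) superfamily was followed in mouse left ventricle 7 days after sham surgery or MI. MI is taken here to mean myocardial infarction, the loss of heart muscle after its blood supply is cut. The genes were chosen by symbol: Tnf, Lta, Ltb, Ltbr, Cd40, Cd40lg, Fas, Fasl and every symbol made of Tnf, Tnfsf, Tnfrsf or Tnfaip followed by a digit. This gave 47 of the 18050 genes in the table. Of these 39 belong to the superfamily: 16 ligands, 5 receptors with a death domain, 14 receptors without a death domain and 4 soluble or decoy receptors. The other 8 carry the name TNF alpha-induced protein (Tnfaip) and are neither ligands nor receptors. All 12 libraries came from wild-type hearts, 6 after sham surgery and 6 after MI, and no other allele or agent is named for either group. The libraries form 2 sets with different processing notes: replicates 1 and 2 of each group (the first set), and replicates 3 to 6 (the second set). MI was set against sham within each set and over all 12 libraries.

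TNF-family ligands are mostly trimeric membrane proteins that can be shed, and they act by clustering receptors on the same or neighbouring cells. Receptors with a cytoplasmic death domain can recruit Fadd and caspase 8 or Tradd and Ripk1, while the others bind TRAF adaptors directly; both routes can activate the NF-kappaB transcription factors, and decoy receptors hold ligand without signalling. In the injured heart TNF is known as a cytokine of inflammatory cells and stressed cardiomyocytes, and other family members are known for T cell costimulation, B cell survival and bone remodelling.

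NF-kappaB and AP-1 are the transcription factors at the end of these routes, so the promoters of the members were read for the spellings of their sites. RefSeq windows (GRCm38.p6) of 250 bases before the gene start were at hand for 37 of the 47 members and for 27025 genes in all, and 7 spellings were searched on both strands. The 9-letter NF-kappaB spelling GGACTTTCC was in 0.333% of genes and in 1 member, Ltb. The looser NF-kappaB consensus, which allows ambiguous letters and overlaps the 9-letter spelling, was in 8.23% of genes and 7 of 37 members (Ltb, Tnfaip2, Tnfaip3, Tnfaip8l1, Tnfrsf25, Tnfrsf8 and Tnfrsf9). The AP-1 spelling TGAGTCA was in 5.16% of genes and 8 of 37 members, the same 8 as for the looser TGANTCA that contains it (7.82% of genes). The TEAD spelling GGAATG was in 14.4% of genes and 7 members, the STAT spelling TTCNNGAA in 8.11% and 3 members, and the ETS spelling AGGAAGT in 8.8% and 5 members. A match is a run of letters and not a shown binding site.

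Of these windows 4 are shown: Ltb for the 9-letter NF-kappaB spelling, Tnfaip3 because it holds both kinds of spelling, and Fas and Tnfaip6 because their response differed between the sets of libraries and both hold the AP-1 spelling. Each is written 5′ to 3′ on the gene's own strand, from within the searched window and outside both the RefSeq gene and exons annotated in GENCODE release M21, and the capitals mark the matches. In Ltb they are a match to the NF-kappaB consensus (87 to 78 bases before the start of the RefSeq gene), which holds the reverse complement of the 9-letter spelling. In Tnfaip3 they are the reverse complement of TGAGTCA (136 to 130) and matches to the NF-kappaB consensus (125 to 116, and 12 to 3), and in Fas and Tnfaip6 they are TGAGTCA itself (199 to 193 and 142 to 136). The window of Fas ends at a transcript start 12 bases inside the gene, so its last 12 bases are not shown. Tnfrsf12a, Tnfaip1, Tnfrsf14 and Tnfrsf25 also differed between the sets and were not among the 8 members found with the AP-1 spelling. Whether the spelling goes with that difference was not tested.
Ltb, chr17:35194257-35194438, plus strand: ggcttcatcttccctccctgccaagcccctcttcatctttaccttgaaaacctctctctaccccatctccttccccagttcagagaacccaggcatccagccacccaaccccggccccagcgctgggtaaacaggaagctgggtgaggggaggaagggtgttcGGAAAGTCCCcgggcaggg
Tnfaip3, chr10:19015411-19015547, minus strand: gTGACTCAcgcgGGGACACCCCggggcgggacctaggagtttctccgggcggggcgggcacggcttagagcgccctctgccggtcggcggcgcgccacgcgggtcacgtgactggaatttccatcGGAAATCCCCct
Fas, chr19:34290409-34290646, plus strand: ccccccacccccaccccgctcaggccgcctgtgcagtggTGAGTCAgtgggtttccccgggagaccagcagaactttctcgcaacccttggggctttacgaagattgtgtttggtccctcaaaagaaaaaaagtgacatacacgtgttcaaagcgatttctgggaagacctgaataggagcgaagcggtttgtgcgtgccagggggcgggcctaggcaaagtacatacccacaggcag
Tnfaip6, chr2:52037863-52038008, plus strand: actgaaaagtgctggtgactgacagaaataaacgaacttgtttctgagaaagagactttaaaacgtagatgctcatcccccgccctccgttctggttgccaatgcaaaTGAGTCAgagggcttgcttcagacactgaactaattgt

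Expected counts summed to 9140353 to 18602226 per library. Within each group the 4 libraries of replicates 3 to 6 lay unusually close together, with a biological coefficient of variation of 0.0293 (sham) and 0.0207 (MI), where replicates 1 and 2 had 0.112 (sham) and 0.192 (MI). Nothing in the labels ties a library to its own animal, so p-values here describe the spread between libraries only. A member is said to have risen or fallen only where edgeR's quasi-likelihood test called it the same way in 2 forms: over 12 libraries, and with replicates 3 to 6 summed and counted once per group (Benjamini-Hochberg adjusted p under 0.05 over all genes). Where 2 adjusted p-values follow a log2 fold change with its standard error (SE), the first is over 12 libraries and the second counted once; a single value for a setting is the larger of the 2. Levels of a gene are TMM-scaled counts relative to the library total (CPM), and TPM, the length-scaled share of transcripts, is used where genes are compared with each other. Cardiomyocyte markers (7 of 7 fell, summed level 82952 to 94333 CPM in sham and 5643 to 26966 CPM in MI) were present in every library, so the labelled tissue's defining transcripts were found. Macrophage markers moved with MI: 7 of 7 rose, from a summed 287 to 314 CPM in sham to 1162 and 1952 CPM in MI replicates 1 and 2 and 782 to 804 CPM in MI replicates 3 to 6. Lung epithelial markers summed to 174 to 178 CPM in MI replicates 3 to 6 and to at most 2.79 CPM in every other library. Neutrophil markers (3 of 6 tested rose) summed to 3.81 and 4.1 CPM in sham and 29.4 and 73 CPM in MI in replicates 1 and 2, and to 26.8 to 28.9 and 47.5 to 50.1 CPM in replicates 3 to 6. Dendritic cell markers (3 of 7 rose) summed to 21.9 to 35.5 CPM in sham and 44.7 to 115 CPM in MI. Adipocyte markers (2 of 2 tested fell) summed to 5501 to 7816 CPM in sham and 444 to 2049 CPM in MI. The part of these cell types in the changes below was not tested, and in whole tissue more cells of a type and more RNA per cell cannot be told apart.

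Most members that could be tested were higher after MI. Of 37 members tested in both forms 23 rose, 2 fell and 12 were not called, where 28.1% of all 13592 genes rose and 29.8% fell. Their median log2 fold change over 12 libraries was 1.20, against 0.01 for all genes tested. Of the 23 that rose, 19 rose at least 2-fold. In 22 of the 37 tested members the lowest MI library exceeded the highest sham library, and in 2 the highest MI library was below the lowest sham library, against 21.3% of tested genes in each direction. The remaining 10 members had too few counts to be tested in both forms. A gene that passes a filter on low counts only through its MI libraries had to differ, so these counts describe the tested members alone. Among the 26 members with a mean of at least 1 CPM in sham in both sets, a limit chosen after the data were seen, 13 rose, 2 fell and 11 were not called, against 25.6% and 32.5% of such genes. In the test that counts replicates 3 to 6 once, 28.1% of genes were called higher and 29.5% lower. Without sham replicate 1, 13 of 39 members tested rose and 1 fell, against 16.2% and 21.7% of genes. With scaling by library size alone the median over all genes shifted by 0.41 on the log2 scale, and 27 of 37 members rose and 1 fell, against 46.1% and 18.2% of genes.

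**Figure D1:**
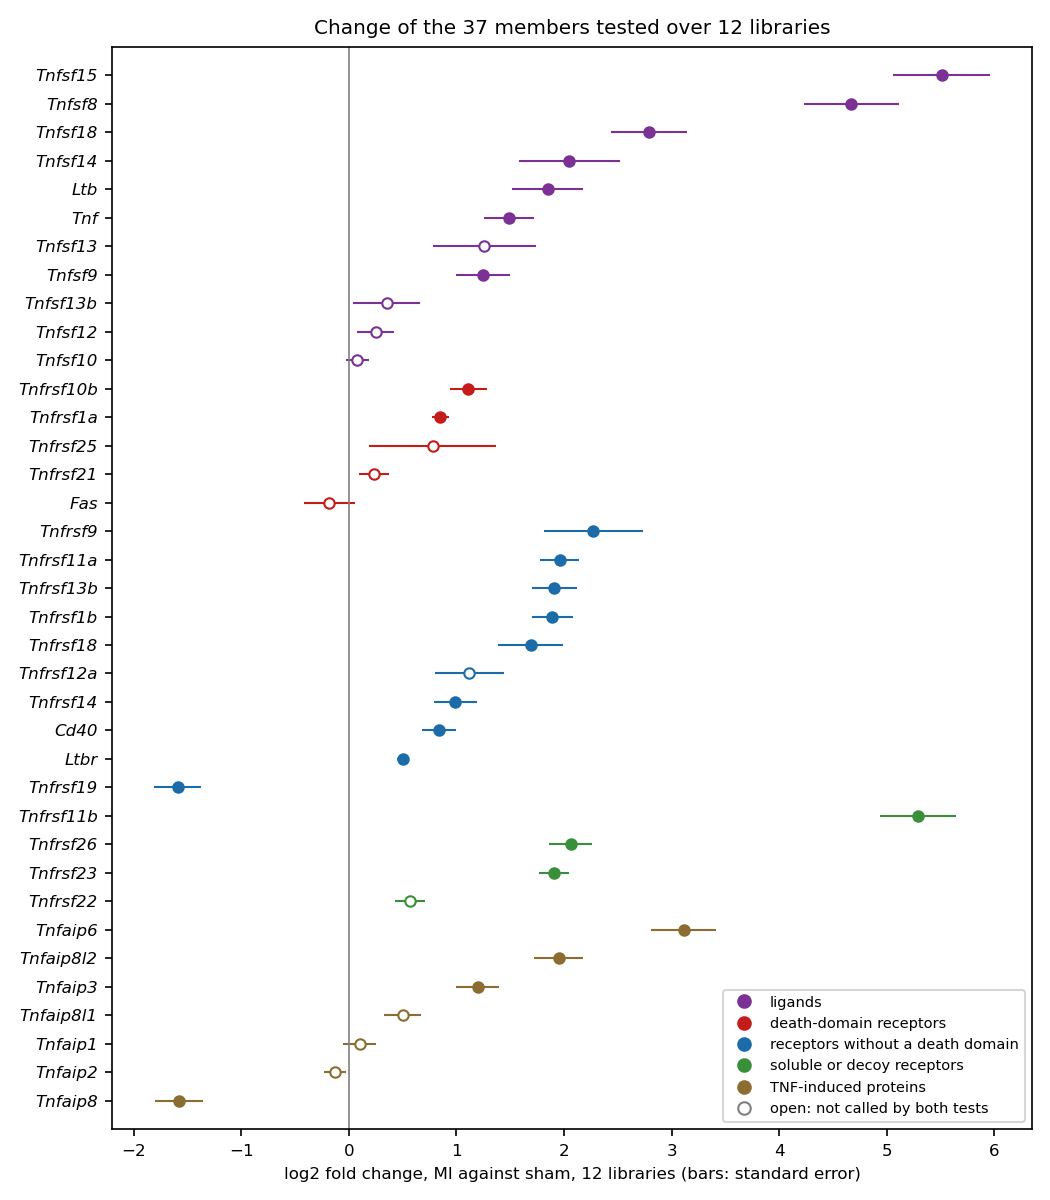
Log2 fold change of MI against sham over 12 libraries for the 37 members tested in both forms, ordered within each role, with bars of 1 standard error. Filled points are the 23 members that rose and the 2 that fell; Tnfsf15, Tnfrsf11b and Tnfsf8 stand at the right above 4, and Tnfrsf19 and Tnfaip8 at the left.

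Among ligands several of those tested had very low sham levels. Of 11 ligands tested 7 rose (Tnfsf15, Tnfsf8, Tnfsf18, Tnfsf14, Ltb, Tnf and Tnfsf9) and 4 were not called. Over all genes 28.1% rose and 29.8% fell. Tnfsf15, Tnfsf8, Tnfsf18 and Tnfsf14, with at most 0.622 CPM in any sham library, passed the filter on low counts through their MI libraries. Their rise was thus fixed by entry to the test, and they enter the count and the median. The median log2 fold change of the 11 ligands was 1.49. Markers of the lymphocytes that make several of these ligands moved unequally beside them: T cell markers (3 of 7 rose) summed to 2.5 to 12.3 CPM in sham and 12.6 to 24.6 CPM in MI. B cell markers (3 of 6 higher in replicates 1 and 2, 1 higher and 2 lower of 5 in replicates 3 to 6, with no call over both forms) summed to 4.65 to 10.1 CPM in sham and 5.17 to 9.6 CPM in MI.

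Tnfsf15 (gene ID 326623; GRCm38 chromosome 4, 63724600 to 63745059, minus strand), a ligand made by endothelial and myeloid cells, was close to absent in sham. It was at 0 CPM in 4 sham libraries, 0.0741 CPM in sham replicate 2 and 0.122 CPM in sham replicate 6. In MI it reached 2.28 and 2.89 CPM in replicates 1 and 2 and 1.04 to 1.65 CPM in replicates 3 to 6. No MI library came near a sham library. From 1 sham and 110 MI counts in replicates 1 and 2 the ratio was 69.1 (95% interval 12.1 to 2753, counting error only), and from 1 and 93 counts in replicates 3 to 6 it was 47 (8.24 to 1877). The fitted log2 fold change was 5.51 (SE 0.45, adjusted p = 3.82e-07 and 0.00157).

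Tnfsf8 (gene ID 21949; chromosome 4, 63831202 to 63861508, minus strand), the ligand of the lymphocyte receptor Tnfrsf8, showed the same shape. Its sham libraries lay between 0 and 0.362 CPM with a median of 0.0751 CPM. Its MI libraries lay at 2.21 and 4.02 CPM in replicates 1 and 2 and 2.24 to 2.88 CPM in replicates 3 to 6. The sham and MI values were thus far apart in both sets, with ratios of 41.8 (11.3 to 348) and 21.4 (8.19 to 79.3) and a fitted log2 fold change of 4.67 (SE 0.44, adjusted p = 1.11e-06 and 0.00148). The 2 genes that led the ligands are neighbours, with 86142 bases between them.

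Tnfsf18 (gene ID 240873), a T cell costimulatory ligand also found on endothelium, had 0.117 to 0.381 CPM in sham. It had 0.914 and 0.925 CPM in MI replicates 1 and 2 and 1.63 to 2.75 CPM in MI replicates 3 to 6, so here the second set was the higher. Its log2 fold change was 2.79 (SE 0.35, adjusted p = 1.35e-05 and 0.0136), and without sham replicate 2 the call was lost (2.78, adjusted p = 0.0594).

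Tnf itself (gene ID 21926; chromosome 17, 35199367 to 35202007, minus strand), the founding ligand, was scarce and rose. Sham libraries held 1.07 and 1.56 CPM in replicates 1 and 2 and 0.483 to 1.24 CPM in replicates 3 to 6. MI libraries held 2.65 and 4.35 CPM and 2.03 to 3.04 CPM. The groups did not overlap, and the change on the log2 scale was 1.49 (SE 0.23, adjusted p = 7.37e-05 and 0.0155), close to equal in the sets (1.39 and 1.60). The call was lost without sham replicate 1 (1.42, adjusted p = 0.0705) and without MI replicate 2 (1.40, adjusted p = 0.0672).

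Ltb (gene ID 16994; chromosome 17, 35194507 to 35196305, plus strand), which forms the membrane lymphotoxin heterotrimer with Lta, rose more in replicates 1 and 2. Its sham libraries held 0.603 to 1.37 CPM with no gap between the sets. Its MI libraries held 7.99 and 8.69 CPM in replicates 1 and 2 but 1.72 to 2.62 CPM in replicates 3 to 6. The log2 fold change was 2.96 (SE 0.27) in the first set and 1.12 (SE 0.26) in the second, and 1.85 (SE 0.33, adjusted p = 0.000272 and 0.00871) over 12 libraries. The difference between sets had an adjusted p of 0.000819 over 12 libraries and of 0.0589 with replicates 3 to 6 counted once, so only the first form called it, and without sham replicate 1 the rise fell short of a call (1.63, adjusted p = 0.05).

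The remaining ligands that rose were T cell costimulators. Tnfsf9, ligand of Tnfrsf9, went from 0.497 to 1.29 CPM in sham to 1.48 to 3.27 CPM in MI (log2 fold change 1.25, SE 0.25, adjusted p = 0.000652 and 0.0241), and 14.9% of its exon bases overlap an antisense gene. Tnfsf14, a ligand of Ltbr and Tnfrsf14, went from 0.0761 to 0.622 CPM to 0.77 to 2.03 CPM (2.05, SE 0.47, adjusted p = 0.00172 and 0.0267). Each was above all sham libraries in every MI library. Both calls were lost when single libraries were left out, which also lowered the number of all genes called higher. Tnfsf9 lost its call without sham replicate 1 or 2 or MI replicate 1 or 2 (adjusted p = 0.072, 0.0933, 0.0846 and 0.0522). Tnfsf14 lost its call without sham replicate 1 or 2 or MI replicate 2 (0.0955, 0.101 and 0.0517).

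Tnfsf12 (gene ID 21944), the TWEAK ligand of Tnfrsf12a and the most abundant ligand per length in each library, was not called. It made up 47.9% to 77.6% of the summed ligand TPM in sham. It measured 43.8 and 45.1 CPM in sham replicates 1 and 2 against 71.6 and 98.2 CPM in MI, but 24.1 to 30.9 CPM in sham replicates 3 to 6 against 23.1 to 26.1 CPM in MI. The first set was higher (log2 fold change 0.92, SE 0.17, adjusted p = 0.00454) and the second overlapped (-0.07, SE 0.07, adjusted p = 0.355). Scaled by library size alone, Tnfsf12 was called higher (0.66, adjusted p = 0.0192). Tnfsf13, known for B cell and plasma cell survival, had 0.22 and 1.79 CPM in sham replicates 1 and 2 and 6.5 and 13 CPM in MI, beside 3.96 to 8.45 and 6.36 to 11.1 CPM in the second set (1.26, SE 0.48, adjusted p = 0.0315 and 0.0724). DESeq2 called it (1.35, adjusted p = 0.00893). Both values are uncertain, since 48.3% of the exon bases of Tnfsf12 and 60% of those of Tnfsf13 are shared with the read-through gene Tnfsfm13, which rose (0.51, SE 0.21, adjusted p = 0.0469 and 0.0364).

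Tnfsf13b, the B cell survival factor BAFF, was higher in replicates 1 and 2 (log2 fold change 1.54, SE 0.49, adjusted p = 0.0334) and level in replicates 3 to 6 (-0.16, SE 0.15, adjusted p = 0.345). Tnfsf10, the death ligand TRAIL, had 16 to 31.6 CPM in sham and 13.1 to 33.2 CPM in MI and overlapped in both sets (0.08, SE 0.11, adjusted p = 0.529 and 0.848). Sham and MI could not be parted for it in either set.

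The other 5 ligands had few counts. Tnfsf4, a costimulatory ligand of T cells, had 0 counts in all 6 sham libraries and was counted in all 6 MI libraries (0.426 to 1.43 CPM). With a floor of 3 counts over the sham libraries of a set it was at least 11.1-fold higher in replicates 1 and 2 (53 MI counts) and at least 6.24-fold higher in replicates 3 to 6 (37 MI counts). Tnfsf11, the osteoclast factor RANKL, had 2 sham and 60 MI counts in replicates 1 and 2 (ratio 18.8, 4.99 to 159) and 6 and 72 in replicates 3 to 6 (6.07, 2.66 to 17.1). Fasl, the death ligand of cytotoxic lymphocytes, had 2 and 20 counts (6.28, 1.53 to 55.4) and 1 and 29 counts (14.7, 2.43 to 599). These 3 were above every sham library in every MI library. The share of 21.3% given above for such genes covers tested genes only. Lta, the soluble lymphotoxin, had a ratio of 4.6 (1.38 to 24) in replicates 1 and 2 and of 1.35 (0.501 to 4.21), an interval that includes no change, in replicates 3 to 6. Cd40lg, the helper T cell ligand of Cd40, had 1 to 4 counts per group and set, too few to show a difference.

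**Figure D2:**
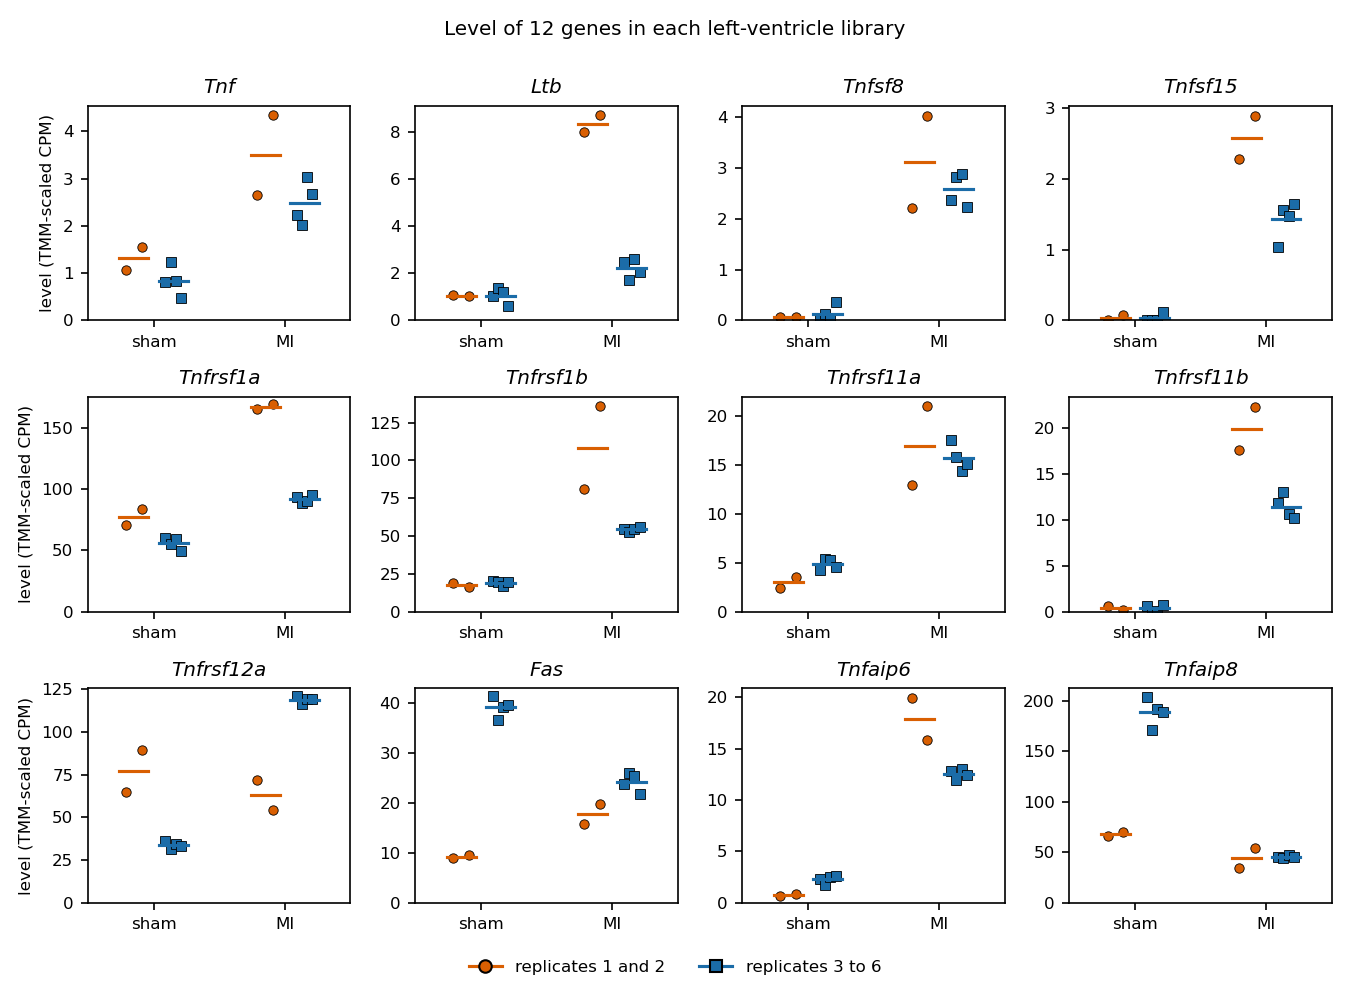
Level of 12 members in TMM-scaled CPM in each library (vertical axis, linear and from 0), for sham and MI, with replicates 1 and 2 as orange circles, replicates 3 to 6 as blue squares and bars at the mean of each set. Tnfsf8, Tnfsf15 and Tnfrsf11b lie near 0 in sham and apart from it in MI, while Fas is higher after MI in the first set and lower in the second, and Tnfrsf12a overlaps in the first set and is higher in the second.

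Among the 5 receptors with a death domain 2 rose and 3 were not called, where 28.1% of all genes rose and 29.8% fell. Tnfrsf1a (gene ID 21937; chromosome 6, 125349723 to 125362483, plus strand), the main receptor for soluble TNF on most cells, had 70.8 and 83.6 CPM in sham replicates 1 and 2 and 49.1 to 59.9 CPM in sham replicates 3 to 6. After MI it had 165 and 169 CPM and 88.8 to 94.9 CPM. Every MI library was above every sham library. Its log2 fold change was 0.85 (SE 0.08, adjusted p = 1.63e-06 and 0.00377). Tnfrsf10b (gene ID 21933), the death receptor for TRAIL in mice, had 4.07 and 4.17 CPM in sham replicates 1 and 2 and 6.41 to 8.42 CPM in sham replicates 3 to 6. After MI it had 13.2 and 15.7 CPM and 11 to 12.8 CPM, so the sets differed in sham and nearly met in MI. Its log2 fold change was 1.11 (SE 0.17, adjusted p = 8.25e-05 and 0.00749). Both calls held in all 22 alternative settings.

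Fas (gene ID 14102; chromosome 19, 34290647 to 34327775, plus strand), the receptor of Fasl, went opposite ways. In replicates 1 and 2 it went from 8.91 and 9.56 CPM in sham to 15.8 and 19.8 CPM in MI. In replicates 3 to 6 it went from 36.6 to 41.4 CPM in sham to 21.8 to 26.1 CPM in MI. The sets thus lay far apart in sham, near each other in MI, and neither overlapped within itself. On the log2 scale the change was 0.93 (SE 0.19, adjusted p = 0.00611) in the first set and -0.64 (SE 0.06, adjusted p = 1.89e-10) in the second, and over 12 libraries it was -0.18 (SE 0.24, adjusted p = 0.495).

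Tnfrsf25, the receptor of Tnfsf15 on T cells, was higher in replicates 1 and 2, from 0.685 and 0.815 CPM to 12.1 and 4.81 CPM (log2 fold change 3.46, SE 0.57, adjusted p = 0.00271). In replicates 3 to 6 it had 2.69 to 3.48 CPM in sham and 1.95 to 2.42 CPM in MI (-0.39, SE 0.19, adjusted p = 0.0571). The second set did not overlap although it missed the threshold. Tnfrsf21, a receptor studied mainly in neurons, was higher in the first set (0.71, SE 0.22, adjusted p = 0.0305) with its highest value, 31.8 CPM, in MI replicate 2, and level in the second (0.01, SE 0.07, adjusted p = 0.889).

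Receptors without a death domain mostly rose: 8 of 10 tested rose, Tnfrsf19 fell and Tnfrsf12a was not called. Over all genes 28.1% rose and 29.8% fell. Tnfrsf9, with at most 0.362 CPM in sham, passed the filter on low counts through its MI libraries and had to differ. Tnfrsf18, with 0.121 to 0.249 CPM in sham replicates 3 to 6, also relied on its MI libraries to pass. Tnfrsf1b (gene ID 21938; chromosome 4, 145212368 to 145246870, minus strand), the receptor of membrane TNF on leukocytes and endothelium, had 16.5 to 20.2 CPM over all sham libraries. It had 81 and 136 CPM in MI replicates 1 and 2 and 52.7 to 55.9 CPM in MI replicates 3 to 6. Sham was level across the sets and MI was not. On the log2 scale the change was 1.89 (SE 0.19, adjusted p = 2.43e-06 and 0.00286), with 2.59 in the first set and 1.56 in the second.

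Measured per length, the balance of the TNF receptors shifted towards Tnfrsf1b. The ratio of Tnfrsf1b to Tnfrsf1a TPM was 0.109 to 0.176 in the 6 sham libraries. It was 0.265 and 0.438 in MI replicates 1 and 2 and 0.253 to 0.265 in MI replicates 3 to 6. The groups did not overlap, and Tnfrsf1a remained the more abundant transcript in each library.

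Tnfrsf11a (gene ID 21934), RANK, the receptor of Tnfsf11 on osteoclast precursors and other myeloid cells, had 2.43 and 3.56 CPM in sham replicates 1 and 2 and 4.29 to 5.35 CPM in sham replicates 3 to 6. It had 12.9 and 21 CPM and 14.4 to 17.5 CPM after MI. The sets overlapped each other in MI, and the change on the log2 scale was 1.96 (SE 0.18, adjusted p = 9.82e-07 and 0.00303). Tnfrsf13b (gene ID 57916), TACI, a receptor of B cells and macrophages for Tnfsf13 and Tnfsf13b, went from 1.67 to 4.22 CPM in sham to 6.74 to 13.9 CPM in MI (1.91, SE 0.21, adjusted p = 5.39e-06 and 0.00555). The summed B cell markers given above overlapped between sham and MI, and their part in this rise was not tested.

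The receptors of lymphotoxin and of T cell costimulation also rose, with calls that were lost when single libraries were left out. Fewer of all genes were called then too: 2241 were higher without sham replicate 1, in place of 3823. Ltbr (gene ID 17000), the lymphotoxin beta receptor of stromal and myeloid cells, had 64 and 72 CPM in sham and 87 and 92.6 CPM in MI in replicates 1 and 2, and 27.8 to 30.5 and 42.4 to 45.5 CPM in replicates 3 to 6. It separated MI from sham within each set, while over 12 libraries the groups overlapped because the sets lay apart. Its log2 fold change was 0.50 (SE 0.05, adjusted p = 3.96e-06 and 0.0212), and the call was lost without sham replicate 1 or 2 or MI replicate 1 or 2 (adjusted p = 0.11, 0.0575, 0.0515 and 0.0638). Tnfrsf18 (gene ID 21936), GITR of regulatory T cells, went from 0.761 and 1.41 CPM to 2.07 and 2.64 CPM in replicates 1 and 2 and from 0.121 to 0.249 CPM to 0.912 to 1.57 CPM in replicates 3 to 6. Its log2 fold change was 1.69 (SE 0.30, adjusted p = 0.000262 and 0.0339). It lost its call without sham replicate 1 or MI replicate 1 or 2 (0.119, 0.0619 and 0.0976), and 27.2% of its exon bases overlap an antisense gene.

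Cd40, the costimulatory receptor of antigen-presenting cells, went from 2.75 to 7.12 CPM in sham to 8.3 to 10.1 CPM in MI (log2 fold change 0.84, SE 0.16, adjusted p = 0.000461 and 0.0303). It lost its call without sham replicate 1 or MI replicate 1 or 2 (0.12, 0.0585 and 0.0844). Tnfrsf9, the T cell receptor of Tnfsf9, went from 0 to 0.362 CPM to 0.669 to 1.39 CPM (2.27, SE 0.46, adjusted p = 0.000756 and 0.0305). It lost its call without sham replicate 1 or 2 or MI replicate 1 or 2 (0.113, 0.0745, 0.0683 and 0.0715). Every MI library exceeded every sham library for both.

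Tnfrsf14 (gene ID 230979), the receptor HVEM of Tnfsf14, went from 9.88 and 10.1 CPM to 38.5 and 34.4 CPM in replicates 1 and 2, and from 16.4 to 20.1 CPM to 25.5 to 29.4 CPM in replicates 3 to 6. Both sets were higher after MI, the first by more. Its log2 fold change was 0.99 (SE 0.20, adjusted p = 0.000586 and 0.00997), and the call was lost without sham replicate 1 or 2 (0.0544 and 0.0521).

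Tnfrsf19 (gene ID 29820; chromosome 14, 60963834 to 61046855, minus strand), TROY, an orphan-type receptor known from epithelial progenitors, was the superfamily member that fell. Its sham libraries held 3.73 to 5.14 CPM with a median of 4.1 CPM. Its MI libraries held 1.01 and 0.971 CPM in replicates 1 and 2 and 1.03 to 2.28 CPM in replicates 3 to 6. All MI libraries were below all sham libraries, and the log2 fold change of -1.59 (SE 0.22, adjusted p = 3.82e-05 and 0.00407) kept its call in all 22 alternative settings.

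Tnfrsf12a (gene ID 27279; chromosome 17, 23675445 to 23677449, minus strand), Fn14, the TWEAK receptor known to be induced in injured tissue and heart muscle, was the most abundant receptor per length in 11 of the libraries and behaved differently by set. In replicates 1 and 2 it had 64.6 and 89.3 CPM in sham and 71.7 and 54.2 CPM in MI. In replicates 3 to 6 it had 31.2 to 36.3 CPM in sham and 116 to 121 CPM in MI. The first set overlapped (log2 fold change -0.31, SE 0.21, adjusted p = 0.234) and the second lay far apart (1.86, SE 0.04, adjusted p = 1.95e-24). Over 12 libraries the value was 1.12 (SE 0.32, adjusted p = 0.00666), and counted once it was 0.37 (SE 0.46, adjusted p = 0.516), so it was not called.

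Of the other 4 receptors of this class, too thinly counted to be tested in both forms, Tnfrsf17 went against the rest. Tnfrsf17, BCMA of plasma cells, had 9 sham and 2 MI counts in replicates 1 and 2 (ratio 0.14, 95% counting interval 0.0147 to 0.674) and 26 and 9 in replicates 3 to 6 (0.175, 0.0722 to 0.385). Every MI library was below every sham library. Tnfrsf4, the receptor of Tnfsf4, had ratios of 6.75 (2.45 to 25.9) and 1.49 (0.827 to 2.81), and Tnfrsf8 had 11.9 (1.9 to 496) and 1.44 (0.587 to 4.04). Tnfrsf13c, the BAFF receptor of mature B cells, had 1.26 (0.391 to 4.68) and 0.722 (0.347 to 1.55), intervals that include no change.

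Of the 4 soluble or decoy receptors 3 rose, against 28.1% of all genes, and among them was the member with the smallest adjusted p over 12 libraries. With at most 0.724 CPM in sham, this member passed the filter on low counts through its MI libraries and had to differ. Tnfrsf11b (gene ID 18383; chromosome 15, 54250619 to 54278484, minus strand), osteoprotegerin, the secreted decoy for Tnfsf11 and TRAIL, had 0 to 0.724 CPM in sham with a median of 0.367 CPM. It had 17.6 and 22.3 CPM in MI replicates 1 and 2 and 10.2 to 13 CPM in MI replicates 3 to 6. Sham and MI lay far apart in both sets, with count ratios of 53.2 (95% interval 28.8 to 111) and 31.6 (18 to 61.4). On the log2 scale the change was 5.29 (SE 0.35, adjusted p = 5.74e-08 and 0.000922). The ligand of the RANK system, Tnfsf11, was below the filter in the 12-library test, while its receptor Tnfrsf11a and this decoy both rose. Fibroblast markers, a cell type known to secrete osteoprotegerin, moved beside it: 6 of 7 rose, from a summed 2704 to 3438 CPM in sham to 57193 and 72726 CPM in MI replicates 1 and 2 and 26627 to 26900 CPM in MI replicates 3 to 6. Their part in the rise was not tested.

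Tnfrsf23 and Tnfrsf22, decoys for TRAIL in mice, and Tnfrsf26 sit side by side on chromosome 7 with 6962 and 16131 bases between neighbours. Tnfrsf23 (gene ID 79201) went from 2.97 to 8.98 CPM in sham to 29.5 and 29.5 CPM in MI replicates 1 and 2 and 15.8 to 19.9 CPM in MI replicates 3 to 6 (log2 fold change 1.91, SE 0.14, adjusted p = 1.19e-07 and 0.00117). Tnfrsf26 (gene ID 244237) went from 0.914 to 1.99 CPM to 4.52 to 6.69 CPM (2.06, SE 0.20, adjusted p = 1.46e-06 and 0.00286). Both rose by a like amount in the sets. Tnfrsf22 (gene ID 79202) had 2.83 to 5.45 CPM in sham and 5.63 to 6.95 CPM in MI without overlap, but was called over 12 libraries only (0.57, SE 0.14, adjusted p = 0.00214 and 0.13). The 3 are closely related genes that lie in tandem, so reads could be split between them, and each value is uncertain to that extent.

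Of the 7 TNF-induced proteins tested 3 rose, 1 fell and 3 were not called, where 28.1% of all genes rose and 29.8% fell. Tnfaip6 (gene ID 21930; chromosome 2, 52038113 to 52056681, plus strand), TSG-6, a secreted hyaluronan-binding protein, had 0.654 and 0.826 CPM in sham replicates 1 and 2 and 1.77 to 2.57 CPM in sham replicates 3 to 6. After MI it had 19.9 and 15.8 CPM and 11.9 to 13 CPM. The first set was lower in sham and higher in MI, and the log2 fold change over 12 libraries was 3.11 (SE 0.30, adjusted p = 1.32e-06 and 0.00249).

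Tnfaip3 (gene ID 21929; chromosome 10, 19000910 to 19015410, minus strand), A20, the ubiquitin-editing inhibitor of NF-kappaB, had 3.63 to 5.38 CPM in sham. It had 12.3 and 21.8 CPM in MI replicates 1 and 2 and 8 to 9.56 CPM in MI replicates 3 to 6. The groups did not overlap, and the change on the log2 scale was 1.20 (SE 0.20, adjusted p = 0.000126 and 0.0112). Its call was lost without sham replicate 1 or 2 (adjusted p = 0.0587 and 0.055). Tnfaip8l2 (gene ID 69769), TIPE2, a regulator of leukocytes, went from 3.58 to 5.43 CPM in sham to 24.7 and 35.6 CPM and 12.2 to 14.4 CPM in MI (1.95, SE 0.23, adjusted p = 8.35e-06 and 0.00367).

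Tnfaip8 (gene ID 106869), a lipid-binding relative of Tnfaip8l2, fell. In replicates 1 and 2 it had 66.1 and 69.7 CPM in sham and 34.4 and 53.9 CPM in MI. In replicates 3 to 6 it had 171 to 204 CPM in sham and 44.4 to 47.5 CPM in MI. MI was alike in the sets while sham was not, with a log2 fold change of -0.64 (SE 0.22) in the first set, -2.0 (SE 0.04) in the second and -1.58 (SE 0.22, adjusted p = 4.13e-05 and 0.0362) over 12 libraries. This call was lost in 9 of 22 alternative settings, the most of any called member, among them scaling by library size alone (-1.17, adjusted p = 0.146) and leaving out sham replicate 1 or 2 or MI replicate 1 (adjusted p = 0.0638, 0.0723 and 0.101). Its exons overlap an antisense gene over 12.7% of their bases.

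Tnfaip1 (gene ID 21927), an adaptor of a ubiquitin ligase, went from 123 and 139 CPM in sham to 88.2 and 85.3 CPM in MI in replicates 1 and 2, and from 77.2 to 85.8 CPM to 104 to 116 CPM in replicates 3 to 6. It was lower in the first set (log2 fold change -0.61, SE 0.12, adjusted p = 0.00536) and higher in the second (0.49, SE 0.04, adjusted p = 2.27e-11). Scaled by library size alone the first set no longer passed (-0.16, adjusted p = 0.269), nor did it without sham replicate 2 (-0.54, adjusted p = 0.0521). Tnfaip2 was lower in the first set (-0.49, adjusted p = 0.0468) and Tnfaip8l1 higher in the second (0.87, adjusted p = 6.71e-08), each without a call over both forms. Tnfaip8l3 had 2 and 7 counts in replicates 1 and 2 and 12 and 15 counts in replicates 3 to 6, with intervals that include no change.

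Within the sets the members were called more often. In replicates 1 and 2, 30 of 40 tested were higher and 4 lower, against 34.1% and 32.9% of all genes. In replicates 3 to 6, 27 of 36 tested were higher and 3 lower, against 42.2% and 39.5%. The median log2 fold change was 1.77 in the first set and 0.98 in the second, against 0.05 and 0.03 for all genes, and 23 of the 36 members tested in both sets had the larger value in replicates 1 and 2. These counts and medians include members that passed the filter on low counts through their MI libraries and had to differ. Among them were Tnfsf15, Tnfsf8 and Tnfrsf11b in both sets, and Tnfsf4, Tnfsf11 and Tnfrsf9 in the first.

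The size or direction of the response differed between the sets for 6 of 37 members in both forms of the interaction test, against 10.5% of all genes. Expressed as the log2 fold change in replicates 3 to 6 minus that in replicates 1 and 2, the difference was 2.10 for Tnfrsf12a (adjusted p = 2.72e-07 over 12 libraries and 0.0289 counted once) and 1.04 for Tnfaip1 (6.52e-07 and 0.0381). It was -1.64 for Fas (9.26e-07 and 0.0287), -1.32 for Tnfrsf14 (2.29e-06 and 0.0289), -2.08 for Tnfaip6 (3.28e-05 and 0.0369) and -3.91 for Tnfrsf25 (3.13e-05 and 0.0472). Fas and Tnfaip1 were called in opposite directions within the sets, 2 of 36 members against 3.50% of genes. Without sham replicate 1 the count of members was 0 in edgeR (12 at an unadjusted p under 0.05), and without sham replicate 2 it was also 0 (11 unadjusted). It was 13 without MI replicate 1, 8 with DESeq2 on all libraries and 10 with the replicate number as a block. The sets also differed in cell-type markers after MI, cardiomyocyte markers summing to 5643 and 9428 CPM in the first and 26395 to 26966 CPM in the second, beside the lung and macrophage values above, and the part of these in the differences was not tested.

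**Figure D3:**
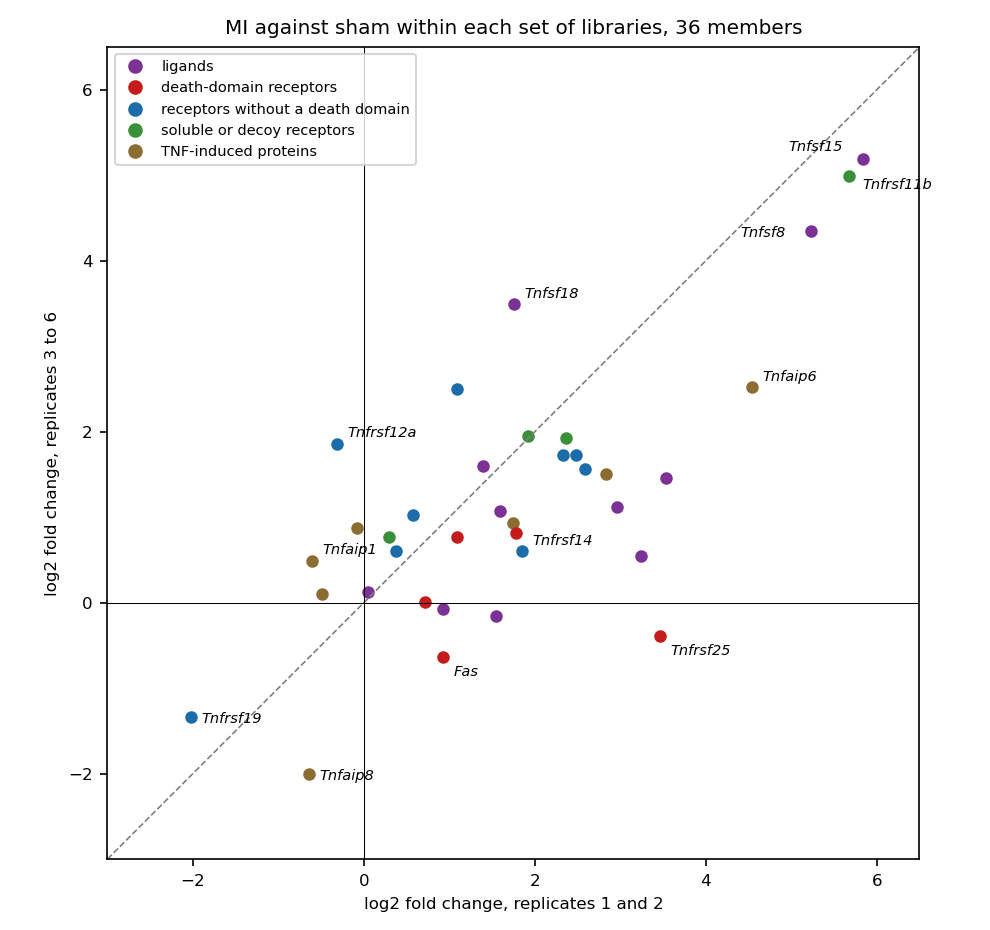
Log2 fold change of MI against sham within replicates 1 and 2 (horizontal) and within replicates 3 to 6 (vertical) for the 36 members tested in both, coloured by role, with a dashed line of equal change. Of the 36 points 26 lie above 0 on both axes, 18 of them below the line, Fas lies below 0 on the vertical axis only, and Tnfrsf12a and Tnfaip1 lie left of 0 on the horizontal axis only.

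Compared per length, receptor transcripts were concentrated in a few genes. Tnfrsf12a was 42.8% and 47.4% of the summed TPM of the 23 receptor genes in sham replicates 1 and 2 and 27% to 28.9% in sham replicates 3 to 6. After MI its share was 27% and 19.9% in the first set and 48.7% to 49.5% in the second, so the order of the sets turned over. Tnfrsf1a took 18% to 20.6% in sham, 26.9% and 27% in MI replicates 1 and 2 and 15.7% to 16.7% in MI replicates 3 to 6. Tnfrsf1b took 2.1% to 3.16% in sham and 4.08% to 11.8% in MI, and Tnfrsf11b went from at most 0.202% to between 1.36% and 2.7%. The 47 members together summed to 388 to 493 TPM in sham and 776 to 1183 TPM in MI, with no overlap. TPM is a share of a fixed total, in which abundant muscle transcripts fell after MI.

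**Figure D4:**
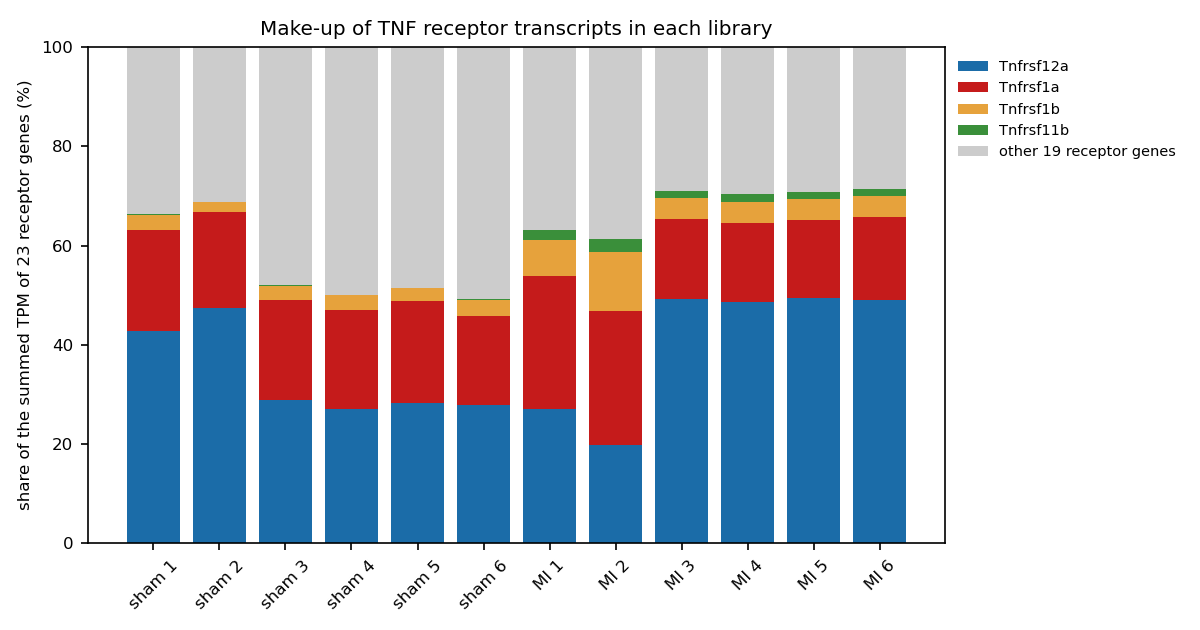
Share of the summed TPM of the 23 receptor genes (vertical axis, percent) held by Tnfrsf12a, Tnfrsf1a, Tnfrsf1b, Tnfrsf11b and the other 19 receptor genes in each of the 12 libraries. Tnfrsf12a is the larger share in sham of replicates 1 and 2 and in MI of replicates 3 to 6, and Tnfrsf1b and Tnfrsf11b widen in all 6 MI libraries.

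Among ligands the most abundant transcript in each library was Tnfsf12, at 47.9% to 77.6% of summed ligand TPM in sham and 38.9% to 64.4% in MI. The summed ligand TPM was 35.7 to 50.4 in sham, 155 and 216 in MI replicates 1 and 2 and 69.3 to 80.3 in MI replicates 3 to 6. The ratio of the TWEAK receptor Tnfrsf12a to Tnfsf12 in TPM was 2.1 to 3.56 in sham. It was 1.8 and 0.993 in MI replicates 1 and 2 and 8.47 to 9.6 in MI replicates 3 to 6. MI lay below the sham range in the first set and above it in the second.

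Ligands and their receptors were set side by side. Of 23 known pairs 12 had both genes tested. Both rose in 7: Tnf with Tnfrsf1a (log2 fold changes 1.49 and 0.85) and with Tnfrsf1b (1.49 and 1.89), Ltb with Ltbr (1.85 and 0.50), Tnfsf14 with Ltbr (2.05 and 0.50) and with Tnfrsf14 (2.05 and 0.99), Tnfsf9 with Tnfrsf9 (1.25 and 2.27) and Tnfsf18 with Tnfrsf18 (2.79 and 1.69). In 3 pairs only the receptor was called: Tnfsf10 with Tnfrsf10b (0.08 and 1.11), and Tnfsf13 and Tnfsf13b with Tnfrsf13b (1.26, 0.35 and 1.91). In 1 pair, Tnfsf15 with Tnfrsf25 (5.51 and 0.78), only the ligand was called, and in Tnfsf12 with Tnfrsf12a (0.25 and 1.12) neither was. The pairs share genes and so are not independent of each other. Of the 37 tested members 23 rose, beside 28.1% of all genes, and no share was worked out for pairs of other genes. Tnfsf14, Tnfsf15, Tnfsf18 and Tnfrsf9 passed the filter on low counts through their MI libraries and had to differ. Tnfrsf18, with 0.121 to 0.249 CPM in sham replicates 3 to 6, also relied on its MI libraries to pass. Whether partners changed together was not tested.

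The members lie on 18 chromosomes, and several sit in clusters. Chromosome 4 holds 9 of them and chromosome 17 holds 8. On chromosome 17 Ltb, Tnf and Lta (35194507 to 35205578) are separated by 3061 and 1157 bases; Ltb and Tnf rose and Lta was too thinly counted. On chromosome 1 Tnfsf4 (161395438 to 161418206), Tnfsf18 (161494657 to 161505290) and Fasl (161780691 to 161788495) follow each other with 76450 and 275400 bases between them, and in all 3 every MI library lay above every sham library. Tnfsf4 and Fasl had too few counts to be tested in both forms. The share of 21.3% of genes with all MI libraries above all sham libraries covers tested genes only. On chromosome 6 Ltbr and Tnfrsf1a are 35837 bases apart and both rose, and on chromosome 4 Tnfrsf4 and Tnfrsf18 are 9708 bases apart. Whether neighbours changed together was not tested.

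Downstream of the receptors, genes of the signalling chain were split. Of 32 receptor signalling genes (TRAF adaptors, death-domain adaptors, caspases, ubiquitin ligases and kinases) 16 rose, 5 fell and 11 were not called, with a median log2 fold change of 0.36. Over all genes 28.1% rose and 29.8% fell, and the median was 0.01. Mlkl, the pore-forming effector of necroptosis, rose with 1.60 (SE 0.08, adjusted p = 4.84e-09 and 0.00111). Ripk1 (1.15), Ripk3 (1.83), Casp8 (1.28), Tradd (1.06) and Traf1 (1.77) rose too. Those that fell were Fadd (-0.40), Ikbkg (-0.41), Map3k7 (-0.29), Sharpin (-0.44) and Tab1 (-0.63), an adaptor and members of the kinase and ubiquitin complexes that lead to NF-kappaB. With scaling by library size alone the median over all genes shifted by 0.41, close to the size of most of these falls. Their calls under that scaling are not given here. Fadd was not called lower in replicates 3 to 6 (-0.11, SE 0.07, adjusted p = 0.165). Otulin, a linear-ubiquitin protease and the most abundant per length of those that did not rise, was at 0.15 (SE 0.09, adjusted p = 0.145 and 0.899). The sheddases of TNF, Adam17 (0.89) and Adam10 (1.11), both rose.

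Of 10 NF-kappaB subunits and inhibitors 6 rose, 1 fell and 3 were not called, beside the same 28.1% and 29.8% of all genes. Nfkbie, an inhibitor, rose with 2.06 (SE 0.16, adjusted p = 1.86e-07 and 0.00201) and the subunit Nfkb1 with 0.56 (SE 0.04, adjusted p = 2.87e-07 and 0.00969). Rel (0.74), Nfkb2 (0.54), Bcl3 (1.39) and Nfkbiz (1.85) rose as well, and the inhibitor Nfkbib fell (-0.71). Nfkbia, the most abundant inhibitor and itself a target, was higher in replicates 1 and 2 (0.52, adjusted p = 0.0195) and lower in replicates 3 to 6 (-0.47, adjusted p = 1.08e-09), the same directions as Fas.

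Of 20 genes listed as NF-kappaB targets 17 were tested in both forms: 10 rose, 1 fell and 6 were not called, where 28.1% of all genes rose and 29.8% fell. Cxcl10, a chemokine for T cells, rose with 4.33 (SE 0.32, adjusted p = 1.54e-07 and 0.00136) and Il6 with 4.95 (SE 0.38, adjusted p = 2.26e-07 and 0.0016). Il6, with sham means of 0.0751 CPM in the first set and 0.178 CPM in the second, passed the filter through its MI libraries. It had to differ, and it enters the count of those that rose. Cxcl10 was low in sham too, with means of 1.01 and 0.358 CPM. Of the adhesion molecules Vcam1 (1.41), Icam1 (1.04) and Selp (2.38) rose, and Sele was not called (0.70, SE 0.24, adjusted p = 0.0178 and 0.429). Sod2, a mitochondrial enzyme abundant in heart muscle, fell (-2.37, SE 0.25, adjusted p = 3.44e-06 and 0.00243), beside the fall of the cardiomyocyte markers. Of 9 further genes, 8 of the superfamily whose symbols the choice did not match and the adaptor Edaradd, 6 were tested; Eda2r, a receptor of ectodysplasin, rose (0.70, SE 0.15, adjusted p = 0.00127 and 0.0288), as did Tnfsfm13. Ngfr, the low-affinity neurotrophin receptor, was level in replicates 1 and 2 (-0.03, adjusted p = 0.939) and higher in replicates 3 to 6 (2.35, adjusted p = 7.1e-07).

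A separate table of FPKM for replicates 1 and 2 lists all 47 members. On log2(FPKM + 0.1) the MI to sham ratio of 43 members lay within 0.25 of that in the table of 12 libraries. It differed by more for Tnfrsf14 (1.85 against 2.24), Tnfrsf22 (0.32 against 0.71), Tnfrsf8 (0.38 against 1.21) and Tnfsf8 (2.87 against 3.19), with no change of direction.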

How the data were processed

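RNA-seq libraries of total RNA enriched for mRNA with oligo(dT) were made from left ventricles, per the labels' protocols, which do not state strandedness. The submitters' processing notes name GRCm38 for all libraries and, for replicates 3 to 6, Bowtie2, RSEM and DESeq2; versions and the tools for replicates 1 and 2 are not given in the sources used here. The authors deposited expected counts, fractional and unscaled, for 18050 genes. The authors also deposited TPM, each gene's length-scaled share of the library's transcripts. Their deposited FPKM values divide fragments by library total and transcript length. A further FPKM table of the authors covers replicates 1 and 2 alone.

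Expected counts were rounded and tested over the whole table with the quasi-likelihood test of edgeR 4.0.16 under R 4.3.3, after TMM scaling and a filter on low counts by filterByExpr. The fits were made with the set as covariate over 12 libraries, with replicates 3 to 6 summed and counted once (3 against 3), and within each set. The difference between sets was the interaction of set and group. Standard errors are the log2 fold change over the square root of F. Count ratios and their 95% intervals use summed counts over scaled library sizes, are exact and cover counting error only. Alternatives used DESeq2 1.42.0, limma 3.58.1 on log2(FPKM + 1) and log2(FPKM + 0.1), other scalings, filters, covariates and thresholds, and each library left out. Simulated counts in which 200 genes were changed served to check the fits of MI against sham, and not the interaction test. They held far fewer changed genes than were called in these data, and the same change in both sets. They thus do not show how the fits behave under the conditions of these data.

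The labels do not say whether replicate numbers pair sham with MI libraries. The deviations of libraries with the same number correlated at -0.0479 to 0.064. This cannot settle it, with 2 libraries per group in the first set and libraries that lay very close together in the second. Positions and exon overlaps came from RefSeq and GENCODE M21 for GRCm38. The members, gene lists and tests were chosen with earlier results of these data known. Every member is accounted for; values per library are given for up to 6 called members of each role with at least 1 CPM, by adjusted p over 12 libraries, the most abundant member not called, and members that differed between sets. Of each pathway list the rule names the 2 smallest adjusted p-values and the most abundant member not called or against the majority. One gene that this rule names is not reported here. Other names from those lists were chosen after their values were seen.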

Additional observations from a re-analysis of the deposited data

Results flagged for a closer look

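Of 74 groups of 6 libraries (37 tested members, sham and MI) 10 held a library that stood apart from the other 5 by Dixon's criterion, a gap of over 0.625 of the group's range. Chance flags about 1 in 20 groups where the 6 values are independent and come from 1 normal distribution. Each group here pools 2 sets that differ in level and spread, so that rate does not apply to these flags. In MI replicate 2 the highest values were 136 CPM for Tnfrsf1b (others 52.7 to 81), 31.8 CPM for Tnfrsf21 (others 17.1 to 21.6), 21.8 CPM for Tnfaip3 (others 8 to 12.3), 5.32 CPM for Tnfsf13b (others 3.13 to 3.82) and 4.02 CPM for Tnfsf8 (others 2.21 to 2.88). In MI replicate 1 they were 54.5 CPM for Tnfaip2 (others 39.2 to 43.8) and 12.1 CPM for Tnfrsf25 (others 1.95 to 4.81). In sham, Tnfaip8l1 was highest in replicate 2 at 11 CPM (others 4.85 to 6.89), Tnfsf8 was highest in replicate 6 at 0.362 CPM (others 0 to 0.124), and Tnfaip3 was lowest in replicate 3 at 3.63 CPM (others 4.72 to 5.38).

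For 6 members the log2 fold change differed between the sets in both forms of the interaction test. As replicates 3 to 6 minus replicates 1 and 2, the differences were -1.64 for Fas, 1.04 for Tnfaip1, -2.08 for Tnfaip6, 2.10 for Tnfrsf12a, -1.32 for Tnfrsf14 and -3.91 for Tnfrsf25.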

How the results depend on the processing

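Of the 25 called members 13 kept call and direction in all 22 settings: Tnfsf15, Tnfsf8, Tnfrsf1a, Tnfrsf10b, Tnfrsf1b, Tnfrsf11a, Tnfrsf13b, Tnfrsf19, Tnfrsf11b, Tnfrsf23, Tnfrsf26, Tnfaip6 and Tnfaip8l2. Of these, Tnfsf15, Tnfsf8 and Tnfrsf11b passed the filter on low counts through their MI libraries and had to differ. The settings include leaving out single libraries of replicates 3 to 6, which lay close together. That changed the call of none of the 37 members, so those settings were a weak check. Members called lower in both tests numbered 1 in place of 2 with library size alone, limma on log2(FPKM + 1) or log2(FPKM + 0.1), no set covariate, the replicate block and a threshold of 0.01, and so did those with replicates 3 to 6 counted once. In replicates 1 and 2, members lower numbered 1 with library size alone and with limma at either pseudocount, and 2 without a filter or at 0.01, in place of 4. All genes higher and lower numbered 6264 and 2477 with library size alone, 6172 and 2545 and then 6212 and 2561 with limma at the pseudocounts of 1 and 0.1, and 2305 and 2216 with no set covariate, in place of 3823 and 4055. A threshold of 0.01 left 14 members higher in both tests, 15 counted once, 2186 genes higher, and 0 differences between sets in edgeR (13 members at an unadjusted p under 0.05, 8 with DESeq2 at 0.05). The replicate block gave 10 differences between sets and ended the calls of Cd40, Tnfaip8, Tnfrsf18 and Tnfrsf9. Whether the numbers pair samples is not known. Among members with at least 1 CPM in sham in both sets, a limit added after seeing the data, 13 were higher. Leaving out each library gave 13 to 24 members higher and 1 to 2 lower in both tests, 14 to 25 higher and 1 to 2 lower counted once, 1 to 5 lower in replicates 1 and 2, 0 to 13 differences between sets, and 2241 to 3912 genes higher. Where that left 1 library in an arm, it was taken to vary like the rest. In replicates 3 to 6 Tnfsf12 turned from -0.07 to a called 0.27 with library size alone, 0.26 with log2(FPKM + 1) and 0.27 with log2(FPKM + 0.1). Depth limits 10 members, which had too few counts for both tests. The cause of these changes was not tested.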
